A study of Homo sapiens with 6 samples.

Results

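Notch signalling was read in the RNA of MDA-MB231 cells through 10 genes: the targets HES1, HES4, HEY1 and NRARP, the ligands JAG1, JAG2 and DLL1, and the receptors NOTCH1, NOTCH2 and NOTCH3. The members were a list of gene symbols, HES1 and genes of its pathway, and all 10 were found among the 58302 genes listed for each library. MDA-MB231 is a cell line from a triple-negative breast cancer. The study compared 3 libraries of cells that carried a control shRNA with 3 libraries of cells that carried Smyca shRNA number 1, a short hairpin RNA against the long non-coding RNA Smyca, to ask how Smyca affects the transcriptome. Both groups were otherwise untreated in the labels, and each was grown from the same cell line. The knockdown rested on 1 hairpin sequence, so an effect of Smyca and an effect of that hairpin cannot be told apart. The study calls the 3 libraries of a group biological repeats. The 4 targets were higher in all 3 control libraries than in all 3 Smyca knockdown libraries, by 1.81 to 2.60-fold. No gene of the 10 passed the adjusted threshold of edgeR's quasi-likelihood test on all libraries with its count filter. Calls depended on the settings, and a second test, DESeq2, called the 4 targets. The receptors and ligands did not share a direction.

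Notch receptors are membrane proteins that are cut when a Delta-like or Jagged ligand on a neighbouring cell binds them. The freed intracellular domain enters the nucleus, joins the DNA-binding protein RBPJ and a Mastermind coactivator, and turns on genes of the HES and HEY families, which encode transcriptional repressors. NRARP, another target, encodes a small ankyrin-repeat protein that binds the complex and limits its activity. In breast cancer, Notch signalling is known for links to stem-like cell states and to epithelial-mesenchymal transition.

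The promoters of HES1 and HES4 are shown because both hold, on the strand of the gene, the GTGGGAA motif to which RBPJ binds. Each line gives the 250 bases before the RefSeq start site, 5′ to 3′ on the strand of the gene, from GRCh38.p14. Capitals mark GTGGGAA and, in HES1, a second match to its 6-base core TGGGAA, which GTGGGAA contains. HES1 lies at chr3:194135898-194136147 on the plus strand, and HES4 at chr1:1000098-1000347 on the minus strand.
HES1: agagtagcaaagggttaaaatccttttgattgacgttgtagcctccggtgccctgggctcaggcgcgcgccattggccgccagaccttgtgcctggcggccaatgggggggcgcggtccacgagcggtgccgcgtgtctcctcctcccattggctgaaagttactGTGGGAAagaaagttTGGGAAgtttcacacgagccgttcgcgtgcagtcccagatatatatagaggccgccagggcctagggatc
HES4: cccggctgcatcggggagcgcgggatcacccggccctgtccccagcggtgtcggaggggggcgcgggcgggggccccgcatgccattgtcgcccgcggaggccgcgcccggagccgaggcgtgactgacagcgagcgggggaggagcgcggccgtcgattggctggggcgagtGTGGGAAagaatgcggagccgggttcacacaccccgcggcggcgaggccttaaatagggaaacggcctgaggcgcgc
In HES1 the GTGGGAA match began 85 bases before the start and the second core match 70 bases before it, and in HES4 the GTGGGAA match began 77 bases before the start. The GENCODE model of HES4 starts further upstream than the RefSeq one, so the last 75 bases of that window lie inside it and the match spans its start. Of the 10 genes, 8 had an entry in the promoter table, and HES1 and HES4 were the 2 that held GTGGGAA on either strand. Among all 35116 promoters of that length, 5.43% held GTGGGAA and 20.8% held TGGGAA, counted on both strands. The E-box CACGTG, found in 6.34% of all promoters, was in none of the 8. The N-box CACNAG, a sequence that HES proteins bind, matched at 3 places in the HES1 promoter and at 1 in that of NOTCH3, and 32.0% of all promoters held it. A match is a run of letters and does not show binding in these cells.

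Total counts ran from 14999307 to 16501085 per library. Levels are given as normalized CPM, which is the count scaled to a common library total and corrected by the TMM factors of edgeR, and group values as mean ± SD over the 3 libraries of a group. Smyca itself, listed as MIR23AHG, stood at 25.0, 19.5 and 22.0 CPM in the control and at 10.5, 6.97 and 5.61 CPM in the knockdown libraries, every control library above every knockdown library (log2 ratio 1.53, SE 0.26). Its adjusted p was 0.111 by edgeR's quasi-likelihood test, 0.0152 in that test without control repeat 3, and 3.96e-05 by DESeq2. The gene overlaps ZSWIM4 on the opposite strand, which had 277 to 703 counts a library. Repeats 1 and 2 were closest to each other in both groups, with a correlation of 0.991 between log2 CPM values over genes, and control repeat 3 correlated less with the other control libraries (0.956 and 0.965) than with the knockdown libraries (0.972 to 0.974). The FPKM column followed the count column in 5 libraries and did not in control 2. The whole reads behind it summed to 16759253 and correlated at 0.996 with the counts of control 3, against 0.965 with the counts of control 2 itself. Those reads were closer to the counts of control 3 (median chi-square over genes 0.892) than any pair of count columns were to each other (2.72 or more), so a fit that uses them may hold 1 library in 2 places. The counts of control 2 were used throughout, and the result with the FPKM reads is given beside the counts for HES1, JAG1, JAG2, DLL1, NOTCH2 and NOTCH3. For the other members the log2 ratio with the FPKM reads was 1.02 for HES4, 1.37 for HEY1, 1.32 for NRARP and -0.92 for NOTCH1. Marker levels are given as plain CPM, without the TMM factors. Markers went against the label in one respect, since MDA-MB231 is known as a mesenchymal, basal-like line. All 8 epithelial markers were at 10 CPM or more in every library, E-cadherin (CDH1) at 74.4 to 295 CPM, and the transcription factor HNF4A, known from gut and liver, was at 68.1 to 196 CPM. Of the mesenchymal markers 6 of 8 were at that level, VIM at 71.4 to 299 CPM, and SPARC was under 1 CPM. Summed epithelial markers ran from 6626 to 7090 CPM in the control and 7074 to 9132 CPM in the knockdown libraries, mesenchymal markers from 675 to 1367 and 667 to 977 CPM, and intestinal markers from 306 to 566 and 602 to 682 CPM. Single markers did not all follow their sums. VIM was at 154 to 299 CPM in the control and 71.4 to 124 in the knockdown libraries, ANXA1 at 57.9 to 97.3 and 21.8 to 30.8, and EGFR at 20.4 to 30.1 and 10.6 to 19.8, so these mesenchymal markers were lower in every knockdown library, while MSN, which made up most of that sum, was at 355 to 753 and 495 to 707 CPM. Of the epithelial markers, CLDN4 was at 217 to 260 and 145 to 176 CPM and KRT8 at 4424 to 4987 and 5094 to 7107 CPM. Of the 6 intestinal markers, VIL1 and HNF4A were at 10 CPM or more in every library, CDX2 was at 6.33 to 10.6 CPM, CDH17 and LGALS4 were at most 4.26 CPM, and CDX1 was at 0. Luminal markers summed to 937 to 1995 and 938 to 1199 CPM, with ESR1, PGR and FOXA1 under 1 CPM. The part of these differences in the values of the Notch genes was not tested, and fewer cells of a kind cannot be told apart from less RNA per cell in such bulk samples.

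The 4 target genes had less RNA in the knockdown libraries, and for each the groups did not overlap. HES1, a basic helix-loop-helix repressor and the best known Notch target (ENSG00000114315, GRCh38 chr3:194136148-194138732, plus strand), was at 64.7, 60.7 and 143 CPM in control repeats 1, 2 and 3. It was at 35.3, 36.0 and 44.4 CPM in the knockdown libraries. Control repeat 3 stood far above the other control libraries, while the knockdown libraries lay close together, and the highest of these was below the lowest control. The group means were 89.4 ± 46.4 and 38.6 ± 5.09 CPM (SD, n = 3 each). The fitted ratio of control to knockdown was 2.32 (log2 1.21, SE 0.32, 95% interval 0.48 to 1.95). Its adjusted p was 0.127 in edgeR's quasi-likelihood test after Benjamini-Hochberg correction, and 3 libraries against 3 allow no two-sided exact permutation p under 0.1, the value found. Without control repeat 3 the log2 ratio was 0.69 (SE 0.16) and its adjusted p 0.0292 in the same edgeR test. With control 2 read from its FPKM column, where HES1 was at 155 CPM, the log2 ratio was 1.64.

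HES4, a close relative of HES1 (chr1:998962-1000172, minus strand), was at 107, 99.99 and 129 CPM in the control libraries. In the knockdown libraries it was at 69.7, 72.0 and 44.2 CPM. Repeat 3 was here the highest of the control and the lowest of the knockdown libraries. Means were 112 ± 15.2 and 62.0 ± 15.4 CPM, a ratio of 1.81 (log2 0.85, SE 0.21, 95% interval 0.37 to 1.33, edgeR adjusted p = 0.122). NRARP (chr9:137299631-137302271, minus strand) was at 11.97, 8.61 and 14.7 CPM in the control and 4.44, 3.10 and 8.06 CPM in the knockdown libraries. Knockdown repeat 3 was the highest of its group and lay just below control repeat 2, the lowest of the controls. Its log2 ratio was 1.18 (SE 0.38, 95% interval 0.32 to 2.03, edgeR adjusted p = 0.157). With 1 library left out it ran from 0.91 (without knockdown repeat 2) to 1.63 (without knockdown repeat 3).

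HEY1, a repressor of the related HEY family (chr8:79762371-79767857, minus strand), had the widest ratio of the 10 genes in the fit of all count columns, on low counts. This order was not fixed, since with the FPKM reads of control 2 the log2 ratio was 1.64 for HES1 and 1.37 for HEY1. Its counts were 86, 73 and 78 in the control libraries and 33, 19 and 36 in the knockdown libraries. In CPM these were 5.31, 4.49 and 4.99 against 2.10, 1.204 and 2.38, so that the control libraries were alike and the knockdown libraries all lay below them. Means were 4.93 ± 0.411 and 1.89 ± 0.613 CPM, a ratio of 2.60 (log2 1.38, SE 0.33, 95% interval 0.62 to 2.14, edgeR adjusted p = 0.122). The repeat that differed from its group in HES1, control 3, was near the other control libraries in HEY1.

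**Figure D1:**
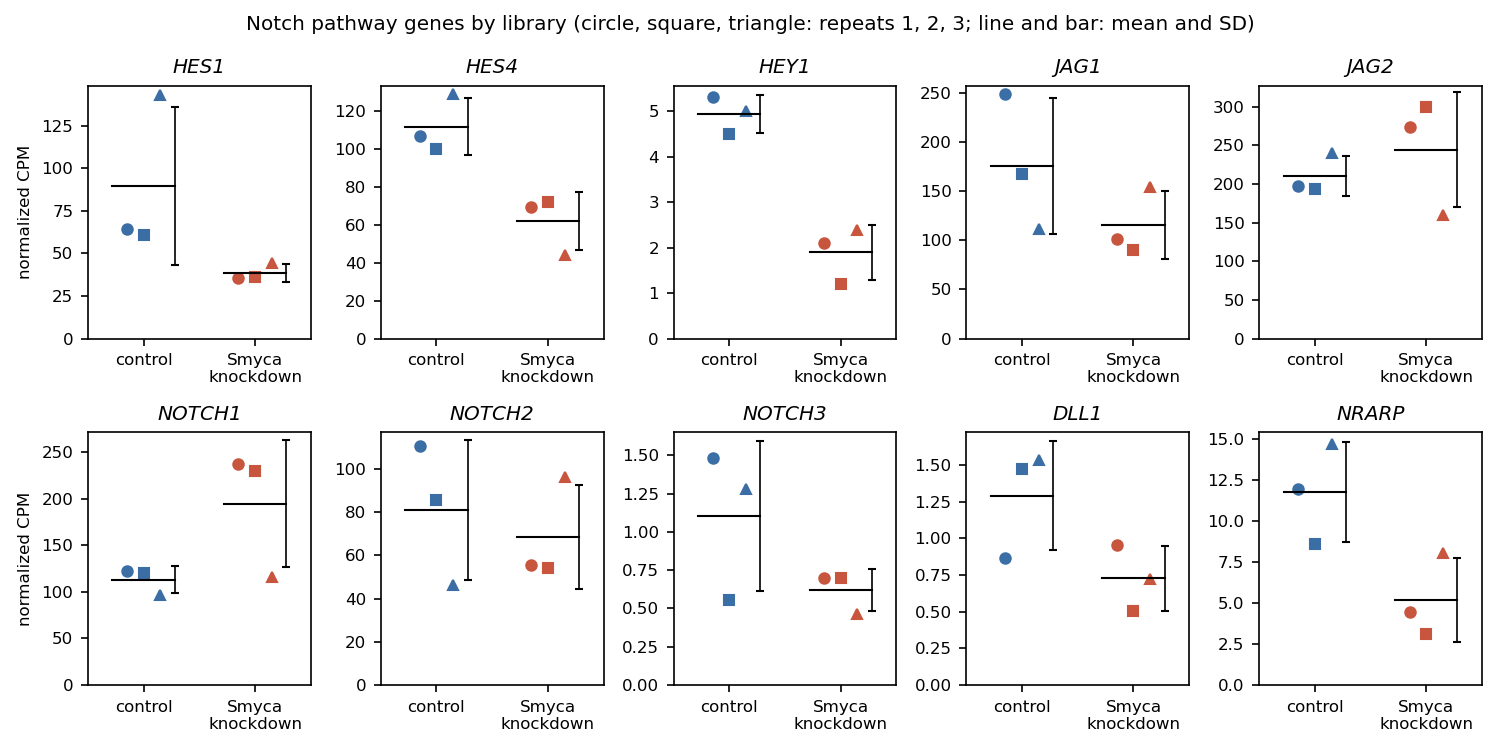
Normalized CPM of each of the 10 genes (vertical axis, 1 panel per gene, from 0) in the 3 control and the 3 Smyca knockdown libraries. Circle, square and triangle stand for repeats 1, 2 and 3, the line for the mean and the bar for the SD. The points of HES1, HES4, HEY1 and NRARP do not overlap between the groups, while those of the other 6 genes do, and 1 control library of HES1 stands at 143 CPM.

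Ligands of both families were present, and none of the 3 described here passed the unadjusted threshold of 0.05. JAG1, a ligand that is often high in basal-like breast cancer (chr20:10637684-10673999, minus strand), was at 249, 168 and 111 CPM in the control and 101, 90.2 and 155 CPM in the knockdown libraries. Repeat 1 was the highest of the control libraries and repeat 3 the highest of the knockdown libraries, above control repeat 3. The log2 ratio of control to knockdown was 0.61 (SE 0.31, 95% interval -0.095 to 1.31, edgeR adjusted p = 0.320). It ran from 0.28 without control repeat 1 to 0.87 without knockdown repeat 3, and was 0.43 with the FPKM reads of control 2. JAG2, the second Jagged ligand (chr14:105140982-105168824, minus strand), was at 197, 194 and 239 CPM in the control and at 274, 299 and 159.6 CPM in the knockdown libraries. Knockdown repeat 3 was the lowest of all 6 and the other knockdown libraries were the highest. Its log2 ratio was -0.22 (SE 0.24, 95% interval -0.75 to 0.32, edgeR adjusted p = 0.641), and it ran from -0.46 without knockdown repeat 3 to -0.051 without knockdown repeat 2, and was -0.092 with the FPKM reads. DLL1, a Delta-like ligand (chr6:170282206-170306565, minus strand), was near the limit of detection, with counts of 14, 24 and 24 in the control and 15, 8 and 11 in the knockdown libraries. Knockdown repeat 1 lay inside the control range. Its log2 ratio was 0.82 (SE 0.43, 95% interval -0.16 to 1.80, edgeR adjusted p = 0.335), and 0.45 with the FPKM reads. DLL1 overlaps FAM120B, a gene on the opposite strand with 295 to 464 counts a library, and the libraries were made with a strand-specific kit. Whether the counting used strand is not given in the sources used here, and without it reads of the pair cannot be told apart.

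Receptors differed in direction among themselves. NOTCH1 (chr9:136494433-136546048, minus strand) was at 123, 119.9 and 96.2 CPM in the control and 238, 230.1 and 116 CPM in the knockdown libraries. Repeats 1 and 2 of the knockdown were far above all controls, and repeat 3 lay inside the control range. Means were 113 ± 14.5 and 195 ± 68.1 CPM, 1.72-fold higher in the knockdown (log2 ratio of control to knockdown -0.79, SE 0.27, 95% interval -1.39 to -0.18, edgeR adjusted p = 0.173). NOTCH2 (chr1:119911553-120100779, minus strand) was at 111, 85.8 and 46.2 CPM in the control and 55.4, 54.0 and 96.1 CPM in the knockdown libraries. Repeat 3 was the lowest of the control and the highest of the knockdown libraries, the reverse of HES4. The log2 ratio was 0.24 (SE 0.33, 95% interval -0.52 to 1.00, edgeR adjusted p = 0.724), and it was -0.046 without control repeat 1, -0.038 with the FPKM reads, and 0.52 and 0.55 without control repeat 3 and knockdown repeat 3. The paralog NOTCH2NLA, which shares sequence with NOTCH2, had counts of 23 to 61, where NOTCH2 had 722 to 1794. Reads of the paralog could thus be a small part of the NOTCH2 count, while up to all of the NOTCH2NLA count could belong to NOTCH2. NOTCH3 (chr19:15159038-15200995, minus strand) was barely detected, with counts of 24, 9 and 20 in the control and 11, 11 and 7 in the knockdown libraries. The groups overlapped in control repeat 2, and the log2 ratio was 0.82 (SE 0.48, 95% interval -0.27 to 1.92, edgeR adjusted p = 0.383). With the FPKM reads control 2 stood at 1.22 CPM, the groups did not overlap and the log2 ratio was 1.07 (edgeR adjusted p = 0.161, unadjusted under 0.05).

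**Figure D2:**
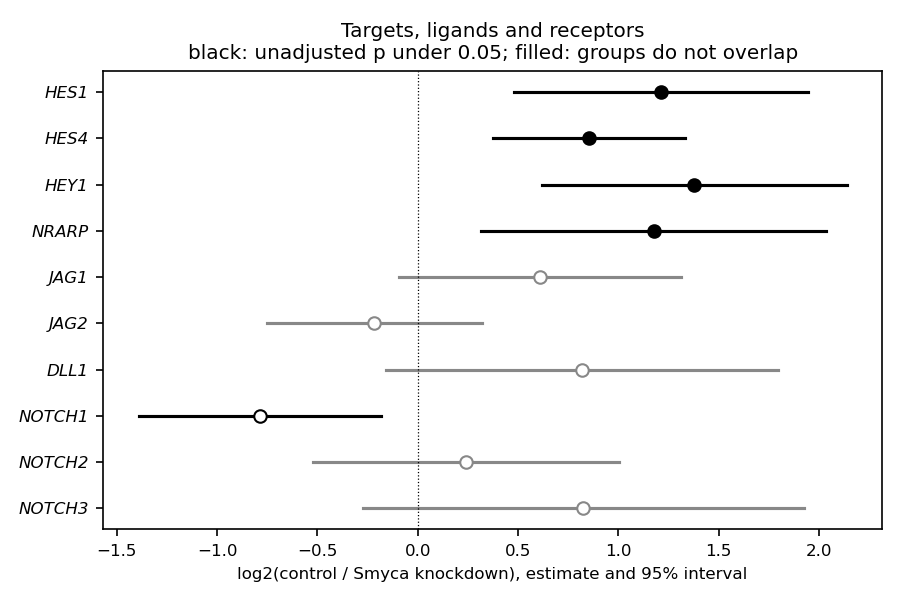
Log2 ratio of control to Smyca knockdown for the 10 genes (horizontal axis) with its 95% interval, from edgeR's fit over all genes. Black marks an unadjusted p under 0.05 and filled points mark groups that do not overlap. HES1, HES4, HEY1 and NRARP lie right of 0, and NOTCH1 alone of the black points lies left of it, at -0.79.

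The 10 genes were then set against all 15075 genes tested, as a description, since the list was made with earlier results of these data known. None of the 10 was called in edgeR (adjusted p under 0.05 with a control to knockdown ratio from 1.5 upward or from 0.66 downward), where 0.0265% of all genes were. DESeq2 called 4 of the 10, HES1, HES4, HEY1 and NRARP, at adjusted p of 0.0109, 0.0147, 0.0128 and 0.0425, all higher in the control, where it called 3.32% of all genes higher and 2.22% lower. At an unadjusted p under 0.05 there were 5 in edgeR, of which the same 4 targets were higher in the control and NOTCH1 was lower. Of all genes, 10.4% were higher and 8.74% lower at that threshold. Groups that did not overlap were found for 4 genes higher in the control and for 0 lower, where the shares of all genes were 12.4% and 12.5%. The median log2 ratio of the 10 was 0.82, against 0.04 for all genes tested, with 8 of the 10 above 0. All 10 passed the filter on low counts.

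Levels between genes were compared per kilobase of the length implied by the deposited counts and FPKM values, as the CPM alone favours long genes. How that length was defined is not given in the sources used here. It may not be the full length of a transcript, so the order between genes depends on it. In control cells HES4 was highest with 123 ± 16.7 CPM per kb, then JAG1 with 107 ± 42.1, HES1 with 69.1 ± 35.9 and JAG2 with 67.9 ± 8.24. NOTCH1 followed with 31.4 ± 4.04, NOTCH2 with 24.8 ± 9.95, NRARP with 6.64 ± 1.71 and HEY1 with 3.96 ± 0.330. DLL1 and NOTCH3 were lowest, with 0.695 ± 0.200 and 0.443 ± 0.196 CPM per kb. The ranges of neighbours in this order over the 3 libraries were separate for JAG2 above NOTCH1, NOTCH2 above NRARP, NRARP above HEY1 and HEY1 above DLL1, and overlapped for the rest. In the knockdown cells the order was led by JAG2 with 79.0 ± 24.1 and JAG1 with 70.0 ± 21.0 CPM per kb. HES4 had 68.0 ± 16.9, NOTCH1 54.2 ± 19.0 and HES1 29.8 ± 3.93, so HES1 was the third by mean in the control and the fifth in the knockdown order. The place in the control order came from control repeat 3, as HES1 was above JAG2 in 1 of the 3 control libraries. NOTCH2 had 21.0 ± 7.31, NRARP 2.94 ± 1.45, HEY1 1.52 ± 0.492, DLL1 0.391 ± 0.120 and NOTCH3 0.248 ± 0.0546 CPM per kb. There, the ranges were separate for NOTCH2 above NRARP and for HEY1 above DLL1. Within each knockdown library, HES4 was also above NOTCH1, HES1 above NOTCH2 and NRARP above HEY1, as NOTCH1 was above NOTCH2 within each control library.

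The other genes of the pathway were taken by role from lists of 70 genes, of which 65 were tested. In edgeR, 10 were higher and 11 lower in the control at an unadjusted p under 0.05, members included, and 0 were called. At that threshold 10.4% of all genes tested were higher and 8.74% lower. DESeq2 called 11 of them, the 4 targets, HES2 and RFNG higher and DLL4, POFUT1, LFNG, MFNG and CREBBP lower in the control. Of all genes tested, it called 3.32% higher and 2.22% lower. The 60 genes outside the 10 had 6 higher and 10 lower at the same unadjusted threshold among the 55 tested, and their median log2 ratio was -0.0063. Among the targets, 6 of 8 tested were higher in the control and 0 lower at that unadjusted threshold, with a median log2 ratio of 1.19. HES7, a repressor known from the segmentation clock, was at 22.2, 18.0 and 29.3 CPM in the control and 1.97, 1.90 and 11.2 CPM in the knockdown libraries (log2 2.20, SE 0.64, edgeR adjusted p = 0.140). Without knockdown repeat 3 its log2 ratio was 3.56 (edgeR adjusted p = 0.0485), and without knockdown repeat 1 or 2 it was 1.81. DESeq2 did not call HES7 (adjusted p = 0.0936). HES2 was at 10.1, 5.48 and 3.39 CPM in the control and at 1.71, 0.570 and 2.24 CPM in the knockdown libraries (log2 2.07, SE 0.56, edgeR adjusted p = 0.129). HES6, a family member that counters HES1, was lower in the control on average, at 168, 314 and 483 against 495, 576 and 421 CPM, with groups that overlapped (log2 -0.63, SE 0.33, edgeR adjusted p = 0.338). HES6 is outside the naming rule and was added after its values were seen. HES3, HES5 and HEY2 were too low to test, HES5 with counts of 6, 2 and 0 in the control and HEY2 with 9, 2 and 3, both at 0 in every knockdown library.

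Receptor glycosylation, which tunes how Notch responds to each ligand, had 3 genes of 5 lower and 1 higher in the control at the unadjusted threshold. Of all genes tested, 8.74% were lower and 10.4% higher there. LFNG and MFNG, the Fringe sugar transferases, were lower in the control, LFNG at 25.7, 34.9 and 33.7 against 61.2, 56.4 and 48.1 CPM (log2 -0.81, SE 0.17, edgeR adjusted p = 0.111). MFNG had a log2 ratio of -0.63 (SE 0.16). POFUT1, the fucosyltransferase on which Fringe enzymes build, was at 64.4, 64.1 and 61.7 against 92.9, 96.1 and 103 CPM (log2 -0.62, SE 0.13, edgeR adjusted p = 0.111). RFNG, the third Fringe gene, was the exception at a log2 ratio of 0.76 (SE 0.16), and it overlaps GPS1 on the opposite strand, which had 2739 to 4106 counts a library. DLL4, a Delta-like ligand outside the 10, was at 9.26, 9.05 and 9.48 CPM in the control and 15.05, 19.6 and 18.4 CPM in the knockdown libraries (log2 -0.93, SE 0.19, edgeR adjusted p = 0.111). It was the 1 ligand of 5 past the unadjusted threshold, and the 1 receptor of 4 was NOTCH1.

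In the nuclear complex 0 of 9 genes were higher and 3 lower in the control at an unadjusted p under 0.05, the threshold of all counts in this paragraph. Each count stands beside 10.4% of all genes tested that were higher and 8.74% that were lower. The acetyltransferases CREBBP, at 108, 92.2 and 119 against 166, 193 and 180 CPM, and EP300, at 98.0, 86.3 and 92.1 against 122, 124 and 122 CPM, had log2 ratios of -0.75 (SE 0.15) and -0.41 (SE 0.13), and the coactivator MAML1 one of -0.34 (SE 0.13). RBPJ, the DNA-binding partner, was at 95.6, 71.9 and 60.3 CPM in the control and 61.9, 56.1 and 72.7 CPM in the knockdown libraries, and these overlapped. Corepressors had 3 of 12 lower, SPEN (log2 -0.46, SE 0.14), TLE3 (log2 -0.38, SE 0.14) and CTBP1 (log2 -0.33, SE 0.14), and 1 higher, TLE2 (log2 0.98, SE 0.41). Ubiquitin ligases and endocytosis genes had 2 of 13 higher, DTX1 (log2 0.88, SE 0.37, and 0.49 with the FPKM reads) and FBXW7 (log2 0.43, SE 0.18, and 0.26 without control repeat 1), which targets the Notch intracellular domain for degradation, and 0 lower. Of 9 genes for receptor cleavage, 0 passed in either direction, and the widest log2 ratio was 0.63 for APH1B (SE 0.43, with 0.34 from the FPKM reads, 1.07 without knockdown repeat 1 and 0.35 without knockdown repeat 2), a subunit of gamma-secretase. With all 6 count columns, TMM scaling and the count filter of edgeR, adjusted p of the genes in this paragraph was at least 0.111. CREBBP was called without that filter (edgeR adjusted p = 0.00941), without control repeat 3 (edgeR adjusted p = 0.0145) and by DESeq2 (adjusted p = 0.00138).

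**Figure D3:**
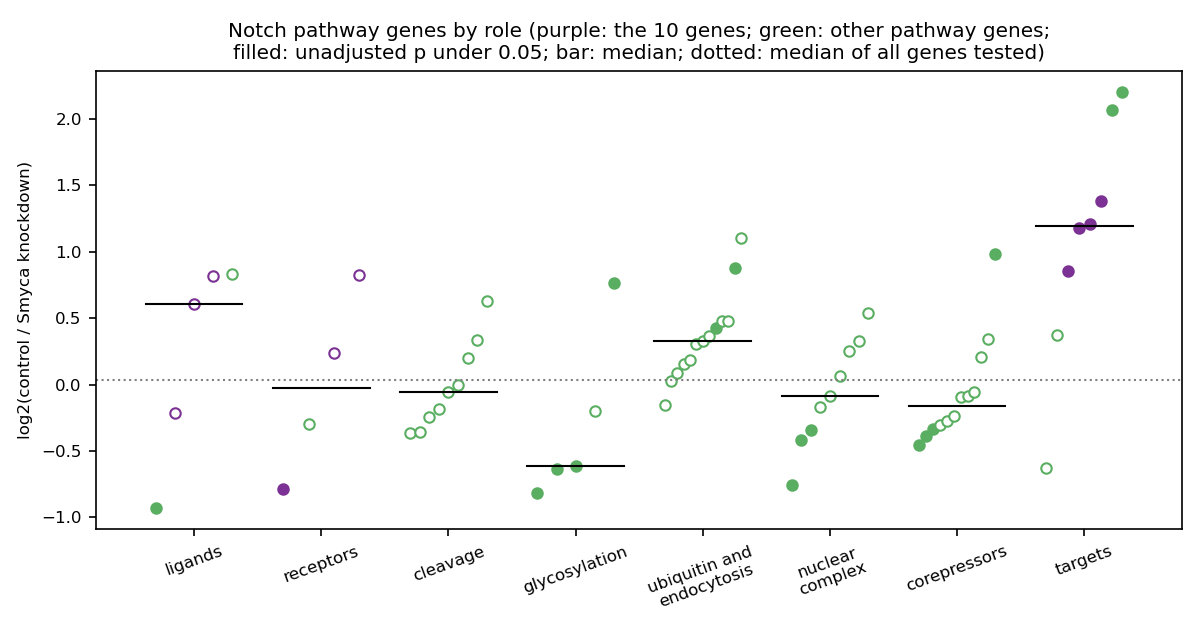
Log2 ratio of control to Smyca knockdown (vertical axis) for the 65 tested Notch pathway genes, grouped by role. Purple points are the 10 genes and green ones the rest, filled where the unadjusted p was under 0.05, bars give the median of a role and the dotted line the median of all genes tested (0.04). The targets have the highest median, 1.19, and receptor glycosylation the lowest, -0.62.

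Genes whose levels followed HES1 most closely over the 6 libraries were named by Pearson correlation of log2(CPM + 1) among 9539 genes with a mean of at least 10 CPM. They were PLTP (r = 0.993), which encodes a phospholipid transfer protein, BLOC1S6 (r = 0.992), a subunit of a complex for lysosome-related organelles, the unnamed gene ENSG00000268205 (r = 0.986), ZNF8 (r = 0.985), a zinc finger gene, and RHOB (r = 0.984), a small GTPase. RHOB was at 211, 241 and 566 CPM in the control and 83.6, 104 and 141 CPM in the knockdown libraries, with the same high value in control repeat 3 as HES1. Of the 5 other members above that level, HES4 was closest to HES1 (r = 0.752) and NOTCH1 ran opposite to it (r = -0.799). These values describe 6 libraries of the same 2 groups and 47 genes had an r above 0.95.

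**Figure D4:**
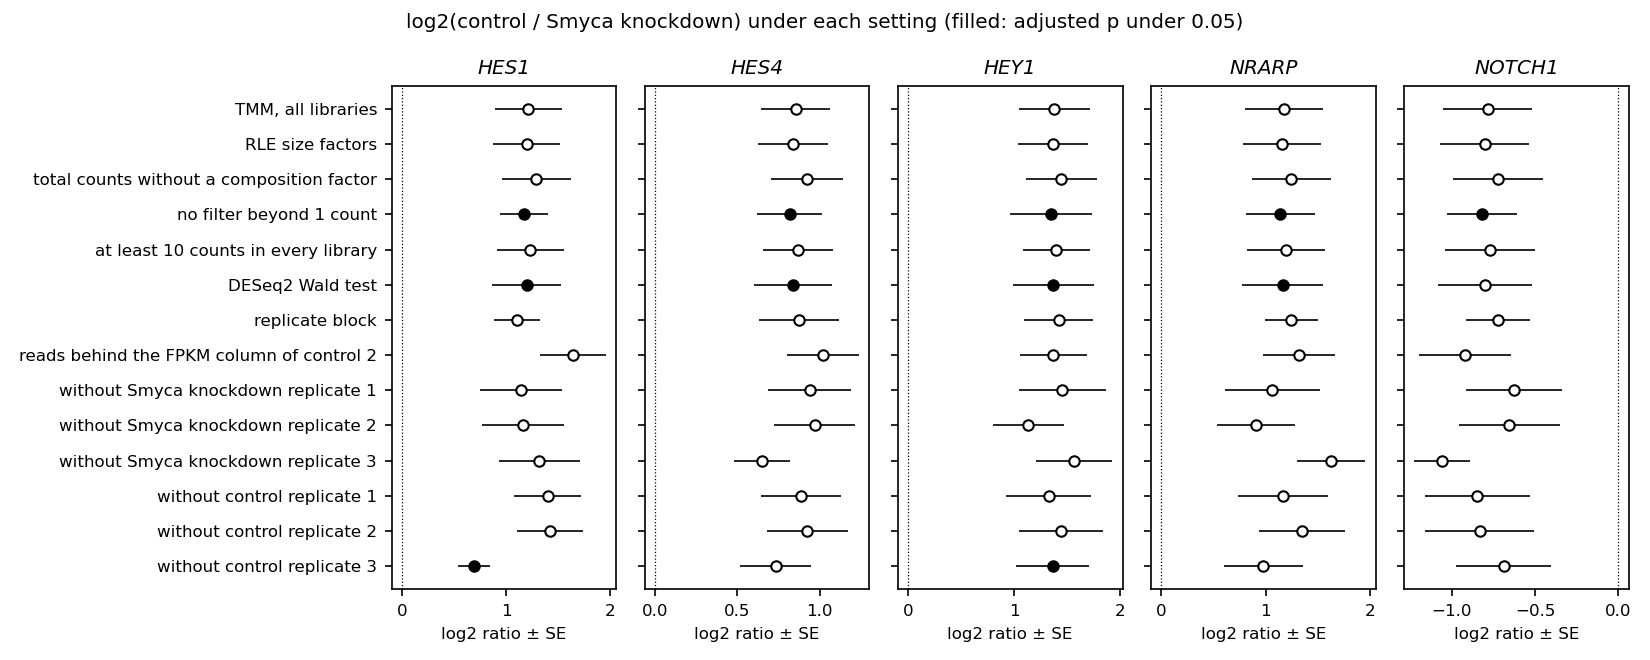
Log2 ratio of control to Smyca knockdown (horizontal axis, point and SE) for HES1, HES4, HEY1, NRARP and NOTCH1 under each setting (vertical axis), filled where the adjusted p was under 0.05. HES1, HES4, HEY1 and NRARP stay right of 0 and NOTCH1 left of 0 in every setting shown, HES1 between 0.69 and 1.64.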

How the data were processed

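RNA-seq was made from 3 control and 3 Smyca knockdown libraries of MDA-MB231 cells. According to the submitters' processing notes, reads were aligned with TopHat2 2.0.12 to hg38. The authors deposited, for each library, a table of raw counts per gene, with no normalization, and an FPKM column. The annotation release and the strand setting of counting are not given in the sources used here. The deposited FPKM values were checked against the counts and agreed in 5 libraries. In control 2 they did not (1.49% of genes within 1%). Whole reads behind that column (100% within 0.05 of a whole number) replaced its counts in an alternative.

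Counts were fitted over 15075 genes with edgeR 4.0.16 (TMM, filterByExpr, quasi-likelihood test, R 4.3.3), with group as the only term and Benjamini-Hochberg adjustment over all genes tested. A gene was called where its adjusted p was under 0.05 and its ratio of control to knockdown 1.5 or more, or 0.66 or less. The SE came from the quasi-likelihood F statistic. The common biological variation was 25.2%. DESeq2 1.42.0 was an alternative, as were other scalings, count filters, a replicate block and leaving out each library. The fit was tested on simulated data. Coordinates come from GENCODE 44, and gene lengths were recovered from the deposited counts and FPKM values. Motifs were searched on both strands of RefSeq promoters. Totals ran from 14999307 to 16501085 counts per library. Intervals are for the fitted ratio of control to knockdown, and their width rests on the counts and on the spread between these libraries. Named were all 10 genes, Smyca, each pathway gene with an unadjusted p under 0.05 (otherwise the widest ratio in a list), NOTCH2 paralogs and the 5 genes most like HES1. One list of cell type markers is not reported here. Members and lists were chosen with earlier results of these data known.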

Additional observations from a re-analysis of the deposited data

How the results depend on the processing

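All 4 targets kept their direction under all 13 alternatives run, and of 361 values over 28 results 322 kept their direction and their side of the threshold, 37 crossed to an adjusted p under 0.05 and 2 reversed. The number of genes called went from 4 to 8 with total counts, 8 at an adjusted p under 0.10, 10 with control 2 read from its FPKM column, 836 with DESeq2 (501 higher and 335 lower in the control) and 916 without a count filter (568 and 348), and it ran from 0 to 1628 when 1 library was left out, the last without control repeat 3 (1004 and 624). Of the 10 genes, 5 were called without a filter (HES1, HES4, HEY1, NRARP and NOTCH1), 4 with DESeq2 and 0 to 2 when 1 library was left out (HES1 and HEY1 without control repeat 3, where 10.5% of all genes were called, against 3.01% without a filter). Of the other pathway genes, RFNG, HES2, DLL4, POFUT1, LFNG, CREBBP and HES6 were called without control repeat 3, and RFNG, HES2, HES7, DLL4, POFUT1, LFNG, MFNG and CREBBP without a filter. The HES1 log2 ratio was 1.17 without a filter (edgeR adjusted p = 0.0018), 1.198 with DESeq2 (adjusted p = 0.0109) and 0.69 to 1.42 when 1 library was left out. Genes of the 10 whose groups did not overlap numbered 4 to 7 with 1 library left out, 7 without knockdown repeat 3 (5 higher and 2 lower in the control, where 20.3% and 19.1% of all genes were). NOTCH2 reversed to -0.038 with the FPKM reads and ran from -0.046 (without control repeat 1) to 0.55 (without knockdown repeat 3) with 1 library left out. The cause was not tested. Deviations from the group mean correlated at 0.0607, 0.0842 and -0.0139 between control and knockdown libraries of the same repeat number. The mean over the other pairs was -0.0217. With 3 libraries a group, these values cannot tell whether repeats were prepared side by side. With a replicate block, edgeR called 0 genes (2568 at an unadjusted p under 0.05), and HES1 had a log2 ratio of 1.104 (adjusted p = 0.176). DLL1 and NOTCH3 had 7 to 24 counts a library, so their ratios rest on few reads.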
